A study of Mus musculus with 30 samples.

Results

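Glomeruli of 8-week-old BTBR ob/ob mice were compared with glomeruli of BTBR wild-type mice of the same age and strain background, 4 animals against 4, with every gene on the array considered. These 8 arrays were chosen by their sample labels from a series of 30, in which both genotypes were also sampled at 4, 16 and 24 weeks, with 3 animals per genotype at 4 weeks and 4 at the later ages. All animals were female, per the labels, and each array held total RNA from the glomeruli of 1 animal. Kidneys were pressed through stacked steel sieves of falling mesh width, and the fraction caught was checked under a microscope before RNA extraction.

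The ob allele abolishes functional leptin, the hormone by which fat tissue signals its stores to the brain,. Such mice overeat, become obese and resist insulin, and on the BTBR background they become overtly diabetic. The filtration barrier of the glomerulus is built by podocytes, fenestrated endothelium and the basement membrane between them, and mesangial cells hold the capillary loops together. Filtrate then passes through the proximal tubule, which reabsorbs glucose, amino acids and phosphate, and through the thick ascending limb, distal convoluted tubule and collecting duct, which adjust salt, calcium, magnesium, acid and water.

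Signals are log2 values as deposited and run past the range of a 16-bit scanner, so differences are given in these log2 units and not as folds. Each difference is ob/ob minus wild type with its standard error after ±, and p values are from limma with Benjamini-Hochberg adjustment over all 24099 genes tested. Where 4 values are listed for a genotype, they are replicates 1, 2, 3 and 4 in that order, and an array is named by its replicate number.

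Leptin itself could not check the labels, because its signal lay at 5.01, 5.50, 5.19 and 5.05 in ob/ob and 5.10, 5.03, 5.75 and 5.0 in wild type, under the median of the negative control probe sets in each genotype (6.05 to 6.26 and 6.10 to 6.18). Podocyte transcripts were present: Nphs1, which encodes the slit diaphragm protein nephrin, gave 10.23, 10.75, 10.74 and 10.20 in ob/ob and 10.31, 9.87, 11.27 and 10.62 in wild type. Tubule transcripts were present as well, among them the thick ascending limb gene Umod at 18 to 19.59 over all 8 arrays, so the samples labelled as isolated glomeruli also carried tubule RNA. The list mean of proximal tubule genes was 15.08 to 15.72 over these arrays, above that of podocyte genes at 9.83 to 10.87. These means rest on different genes and probe sets, so they do not measure how much RNA each cell type gave. How far the differences below came from glomerular or from tubule cells was not tested. In such bulk samples fewer cells of a type and less RNA per cell cannot be told apart.

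Correlations between any 2 of them across genes, which are not independent replicates, were 0.984 to 0.996. The chance that a positive control was brighter than a negative control, a measure of RNA and hybridisation quality, was 0.838 to 0.854 in ob/ob and 0.826 to 0.865 in wild type (p = 0.943 by a two-sided exact permutation test). Wild-type replicate 3 had the lowest of these values, the lowest median of the positive controls (10.4, against 10.6 to 10.9 in the other 7) and the widest interquartile range of gene deviations (0.348, against 0.164 to 0.296). It also stood apart in content, with the highest podocyte list mean (10.87, against 9.83 to 10.51 elsewhere), the lowest proximal tubule list mean (15.08, against 15.15 to 15.72) and the highest mean of the heat shock list (11.93, against 10.27 to 10.98). In ob/ob replicate 3 the mean of the fatty acid oxidation list was the highest (12.04, against 10.25 to 11.30).

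At 8 weeks 407 of 24099 genes passed an adjusted p of 0.05, which is 1.69%. Of these, 154 were higher in ob/ob (0.639%) and 253 lower (1.05%). These shares of all genes are the background for every count of called list members below. A list with 1 or 2 called members is described by those genes and not as a set. The largest rise was 3.87 and the largest fall -4.60 log2 units, the smallest difference called was 0.27, and 129 of the called genes differed by at least 1 log2 unit (41 higher, 88 lower). The 2 groups of arrays did not overlap for 400 of the 407 called genes. Without a test, groups were free of overlap for 3.65% of all genes with ob/ob higher and 6.31% with ob/ob lower. Over all genes the median difference was -0.01, and 47.3% of differences were above 0. Scaling the arrays again by cyclic loess gave 722 genes with 378 higher and 344 lower, so the excess of falls over rises among called genes depended on the scaling.

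**Figure D1:**
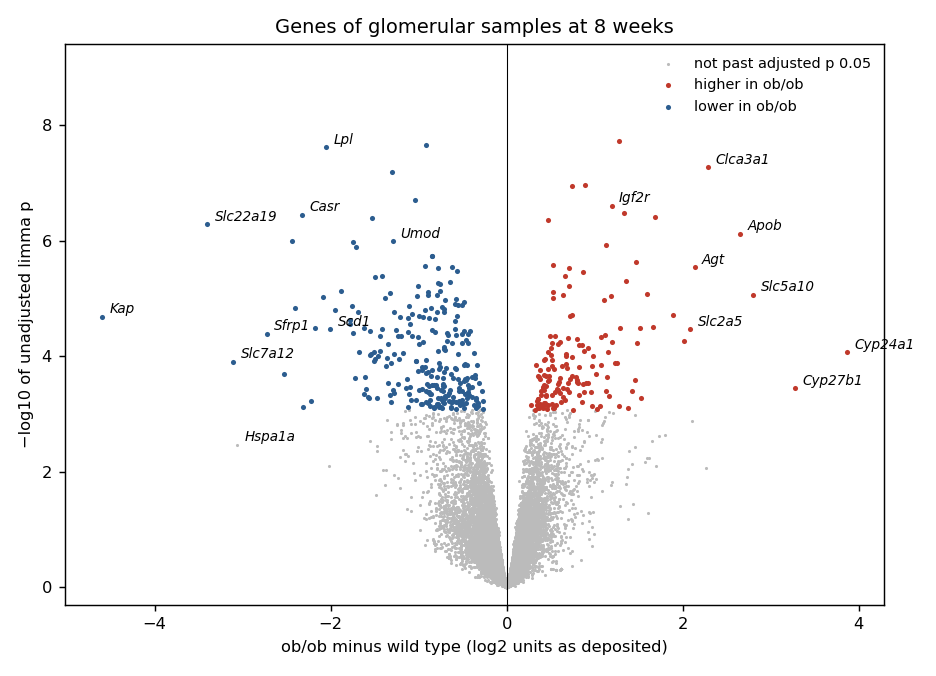
Each point is 1 of 24099 genes, with the difference ob/ob minus wild type at 8 weeks in log2 units on the x axis and −log10 of the unadjusted limma p on the y axis; red and blue points pass an adjusted p of 0.05 (154 higher, 253 lower). Cyp24a1 (3.87) and Kap (-4.60) lie farthest out, and Hspa1a (-3.06) is an example of a wide difference that did not pass.

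Vitamin D enzymes gave the 2 largest rises. Active vitamin D is made in the proximal tubule by the hydroxylase CYP27B1, is degraded by CYP24A1, and raises uptake of calcium and phosphate. Cyp24a1 gave 12.74, 10.82, 13.34 and 13.24 in ob/ob and 10.16, 9.13, 7.04 and 8.35 in wild type, a difference of 3.87 ± 0.83 (adjusted p = 0.0135). Cyp27b1 gave 12.88, 11.84, 10.28 and 11.88 in ob/ob and 8.24, 9.63, 7.33 and 8.58 in wild type, a difference of 3.28 ± 0.80 (adjusted p = 0.0314). For both enzymes the lowest ob/ob array was above the highest wild-type array, by a narrow margin, and arrays of 1 genotype differed among themselves by over 2 log2 units. These were the only called members among 12 tested in the vitamin D list, whose median was 0.03. Vdr, the vitamin D receptor, differed by -0.14 ± 0.21 (adjusted p = 0.91). Calb1, a calcium-binding protein of the distal tubule that vitamin D induces, gave 14.29, 14.00, 14.57 and 13.41 in ob/ob and 15.24, 15.55, 14.81 and 15.49 in wild type, a difference of -1.21 ± 0.35 that did not pass (adjusted p = 0.0821). The calls were fragile: leaving out ob/ob replicate 3 or 4 or wild-type replicate 3 or 4 lost that of Cyp24a1 (adjusted p of up to 0.0591), and leaving out ob/ob replicate 1, 2 or 4 or wild-type replicate 1, 3 or 4 lost that of Cyp27b1 (up to 0.116).

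In the list of genes that sense or carry calcium and magnesium 5 of 16 tested fell, none rose and 11 did not pass, and the list median was -0.79 with 15 of 16 differences negative. The count was 5 without wild-type replicate 3, 1 without wild-type replicate 4, and 2 or 3 without any other array. Casr, the calcium-sensing receptor of the thick ascending limb, gave 9.92, 9.42, 9.16 and 9.33 in ob/ob and 11.09, 11.91, 11.84 and 12.30 in wild type, a difference of -2.33 ± 0.34 (adjusted p = 0.000756). Its call was kept whichever of the 8 arrays was left out (adjusted p of at most 0.00554). The magnesium channel gene Trpm6 gave 9.11, 8.87, 9.06 and 8.71 against 10.26, 10.52, 10.19 and 10.18 in wild type, a difference of -1.35 ± 0.32 (adjusted p = 0.0282). Cnnm2, which takes part in magnesium transport of the distal tubule, differed by -0.82 ± 0.22 (adjusted p = 0.0474). In both magnesium genes all ob/ob arrays were below all wild-type arrays, and both calls were lost when any array other than wild-type replicate 3 was left out (adjusted p of up to 0.0981 and 0.161). The 2 other called members, Cldn19 and Pvalb, are described with their nephron segments, and the whole set moved with the distal markers described there.

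Of 14 tested genes for phosphate handling and the phosphate hormone FGF23, 1 rose and 1 fell, with a median of 0.18. Slc20a2, a sodium-phosphate cotransporter, gave 12.08, 11.76, 11.56 and 12.12 in ob/ob and 11.03, 11.07, 10.32 and 10.61 in wild type, a difference of 1.12 ± 0.23 (adjusted p = 0.00903). Kl, which encodes klotho, the coreceptor of FGF23, gave 15.69, 15.75, 15.13 and 15.73 in ob/ob and 16.26, 16.57, 16.49 and 16.46 in wild type, a difference of -0.87 ± 0.22 (adjusted p = 0.0351). Neither gene overlapped between genotypes. The call of Slc20a2 was kept whichever array was left out (adjusted p of at most 0.0451), while that of Kl was lost without any array except wild-type replicate 1 (up to 0.14).

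**Figure D2:**
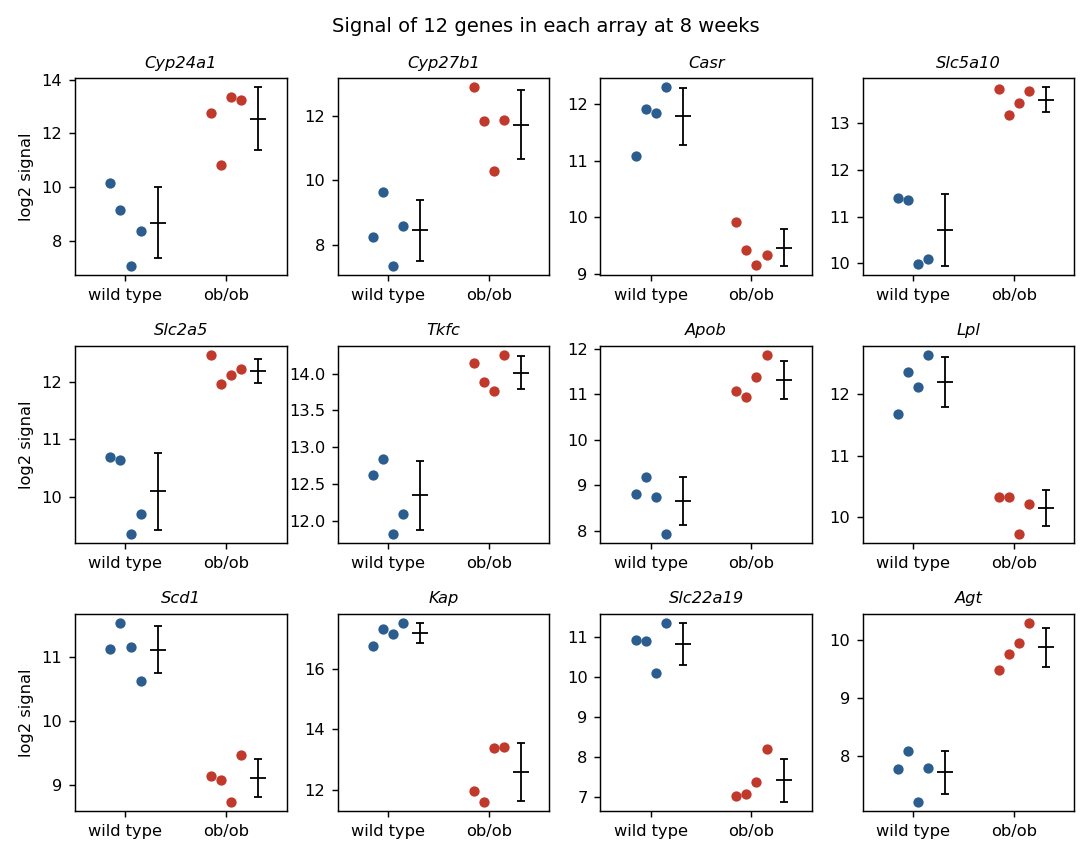
Each panel shows the log2 signal of 1 gene in the 4 wild-type (blue) and 4 ob/ob (red) arrays at 8 weeks, from replicate 1 at the left to replicate 4, with the mean and SD of 4 arrays in black. The genotypes do not overlap in any of the 12 panels, and Cyp24a1 and Cyp27b1 show the widest scatter within a genotype.

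In the list for sugar transport 3 of 17 tested genes rose, 1 fell and 13 did not pass, with a median of 0.16. Of all genes 0.639% rose and 1.05% fell at the same threshold. Slc5a10, a sodium-coupled transporter of mannose and fructose, gave 13.75, 13.18, 13.44 and 13.69 in ob/ob and 11.40, 11.36, 9.98 and 10.09 in wild type, a difference of 2.81 ± 0.50 (adjusted p = 0.00409). Slc2a5, the fructose transporter GLUT5, gave 12.46, 11.96, 12.12 and 12.22 against 10.69, 10.65, 9.36 and 9.71, a difference of 2.09 ± 0.42 (adjusted p = 0.00821). Slc2a2, the facilitative glucose transporter at the blood side of the proximal tubule cell, gave 16.36, 16.51, 16.62 and 16.65 against 15.43, 15.41, 14.68 and 14.75, a difference of 1.47 ± 0.24 (adjusted p = 0.00238). In each of these genes the ob/ob arrays lay close together, and wild-type replicates 3 and 4 were lower than wild-type replicates 1 and 2. Slc2a4, the insulin-responsive glucose transporter, fell from 8.75, 9.08, 8.56 and 8.90 in wild type to 8.01, 7.85, 7.69 and 7.73 in ob/ob (-1.0 ± 0.23, adjusted p = 0.0207). Slc5a2, the main sodium-glucose cotransporter and the target of gliflozin drugs, gave 17.94, 18.05, 17.78 and 18.16 against 17.66, 17.78, 17.31 and 17.38, a difference of 0.45 ± 0.16 that did not pass (adjusted p = 0.187). Slc2a1, a widely expressed glucose transporter named here after its values were seen, differed by -1.02 ± 0.30 (adjusted p = 0.0805). The 3 rises kept their calls whichever array was left out (adjusted p of at most 0.0392), and the call of Slc2a4 was lost without ob/ob array 2, 3 or 4 or wild-type array 2 or 4 (up to 0.0718).

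The enzyme genes Tkfc, Pklr and Fbp2 are outside that list and were named for the size of their rise. Tkfc, the triokinase that acts on fructose breakdown products, gave 14.14, 13.89, 13.77 and 14.25 in ob/ob and 12.63, 12.84, 11.82 and 12.10 in wild type, a difference of 1.66 ± 0.33 (adjusted p = 0.00821). Pklr, the pyruvate kinase of liver and red cells, gave 11.11, 10.84, 10.81 and 11.47 against 9.94, 9.90, 8.69 and 9.31, a difference of 1.6 ± 0.29 (adjusted p = 0.00409). Fbp2, a fructose bisphosphatase, gave 10.88, 10.82, 11.35 and 11.33 against 10.01, 10.34, 9.55 and 9.91, a difference of 1.14 ± 0.27 (adjusted p = 0.0248), and its call was lost without ob/ob array 3 or 4 or wild-type array 1, 3 or 4 (up to 0.0945). No member of the gluconeogenesis list passed among 9 tested (median 0.08). Its rate-limiting enzyme Pck1 gave 17.99, 18.02, 17.17 and 18.04 in ob/ob and 17.38, 17.44, 15.90 and 16.58 in wild type (0.98 ± 0.36, adjusted p = 0.207). The mean of the proximal tubule list, whose cells express these transporters, was 15.25, 15.15, 15.26 and 15.48 in ob/ob and 15.60, 15.72, 15.08 and 15.38 in wild type. That mean includes Kap, which fell widely, and without Kap, a choice made after seeing the data, the ob/ob arrays averaged 15.41 ± 0.11 and the wild-type arrays 15.37 ± 0.30 (SD, n = 4 each), lowest in wild-type replicate 3 at 14.99. The part of proximal tubule content in the sugar values was not tested.

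The Pklr promoter is shown because Pklr is a textbook target of the glucose-sensing factor ChREBP. Pklr has 2 windows, and the 1 shown is the first that holds a carbohydrate response element, in capitals. The window runs from 250 bases before to 50 bases after the RefSeq start site on the plus strand (chr3:89136373-89136672, GRCm38.p6).
Pklr: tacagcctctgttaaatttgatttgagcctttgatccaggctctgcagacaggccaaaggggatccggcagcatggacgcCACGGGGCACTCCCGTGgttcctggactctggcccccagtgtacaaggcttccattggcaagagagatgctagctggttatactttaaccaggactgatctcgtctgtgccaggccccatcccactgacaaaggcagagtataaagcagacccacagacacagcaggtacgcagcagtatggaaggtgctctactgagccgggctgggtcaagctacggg
The element was searched as CACG, any base, G, 5 of any base, C, any base and CGTG, which reads the same on both strands, and lies at -170 to -154 from the start. Of 32851 such windows of the mouse, 15 hold it (0.0457%), in 14 genes. None of the 13 sugar list genes with a window was among them. A match of letters is a description and not evidence of binding.

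Lipid genes moved in both directions. Of 22 tested genes for lipoproteins and lipid uptake, 2 were higher and 1 lower (median 0.10). Apob, the structural protein of very-low-density lipoprotein, gave 11.07, 10.94, 11.39 and 11.86 in ob/ob and 8.80, 9.18, 8.73 and 7.92 in wild type, a difference of 2.66 ± 0.41 (adjusted p = 0.00116). Lpl, the lipase that releases fatty acids from lipoproteins at the vessel wall, gave 10.33, 10.33, 9.72 and 10.22 in ob/ob and 11.68, 12.36, 12.12 and 12.64 in wild type, a difference of -2.05 ± 0.26 (adjusted p = 0.000197). Genotypes were separated by over 1 log2 unit in each of these genes, and the calls were kept whichever array was left out (adjusted p of at most 0.0095 and 0.00143). Plin2, a coat protein of lipid droplets, gave 9.72, 9.83, 10.93 and 10.27 in ob/ob and 9.15, 9.13, 9.24 and 9.10 in wild type (1.03 ± 0.27, adjusted p = 0.0489). Its highest value was in ob/ob replicate 3, without which the difference was 0.78 (adjusted p = 0.198), and its call was kept only without ob/ob array 1 among the 8 arrays.

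In the lipid and sterol synthesis list 4 of 21 tested genes fell, none rose and 17 did not pass. Of the 21 differences 17 were negative, and the median was -0.41. The count was 2 without any ob/ob array or wild-type replicate 1 or 2. Scd1, the desaturase that makes oleic acid, gave 9.14, 9.08, 8.73 and 9.47 in ob/ob and 11.12, 11.53, 11.16 and 10.63 in wild type, a difference of -2.01 ± 0.40 (adjusted p = 0.00821). Fads1, a desaturase of polyunsaturated fatty acids, gave 13.10, 13.23, 12.64 and 12.89 against 13.94, 13.95, 13.65 and 13.57 (-0.81 ± 0.16, adjusted p = 0.00864). Both kept their calls whichever array was left out. Fasn, the fatty acid synthase, gave 8.37, 8.33, 7.93 and 8.54 against 9.31, 9.23, 9.06 and 8.65 (-0.77 ± 0.20, adjusted p = 0.0474). Cyp51, a demethylase of cholesterol synthesis, gave 9.18, 9.23, 8.94 and 9.14 against 10.27, 10.20, 9.72 and 9.83 (-0.88 ± 0.21, adjusted p = 0.0302). All 4 genes were lower in every ob/ob array than in any wild-type array. The calls of Fasn and Cyp51 were lost without almost any single array, the exceptions being wild-type replicate 4 for Fasn and wild-type replicate 3 for Cyp51 (adjusted p of up to 0.17 and 0.097). Insig1, a sterol-regulated retention protein named after its values were seen, gave 9.72, 9.56, 9.14 and 9.16 against 11.10, 10.72, 9.97 and 9.31 and did not pass (-0.88 ± 0.27, adjusted p = 0.112).

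In the fatty acid oxidation and PPAR target list 21 of 22 differences were positive with a median of 0.47, but Plin2 was the only member called. Ob/ob replicate 3 led this list, and without it the median was 0.31 with no member called. Without wild-type replicate 3 the median was 0.23, also with no member called. Angptl4, an inhibitor of lipoprotein lipase, gave 8.72, 9.16, 11.33 and 9.28 in ob/ob and 7.15, 8.07, 7.55 and 7.29 in wild type, a difference of 2.11 ± 0.58 that did not pass (adjusted p = 0.0639). Vnn1, a pantetheinase, gave 11.83, 11.82, 13.78 and 12.33 against 10.89, 12.08, 9.36 and 10.52 (1.73 ± 0.51, adjusted p = 0.0894). Both were named after their values were seen, and in both the value of ob/ob replicate 3 was the highest. Outside the lists, Bbox1, the enzyme of the last step of carnitine synthesis, gave 8.39, 8.04, 8.71 and 8.64 in ob/ob and 6.90, 7.23, 5.85 and 6.21 in wild type (1.90 ± 0.36, adjusted p = 0.00604). The lowest wild-type values of Bbox1 lay near the negative control median, so the size of its rise is limited by background. Acsf2, an acyl-CoA synthetase family member, gave 10.21, 10.24, 11.66 and 10.85 against 9.16, 9.66, 8.88 and 9.34 (1.48 ± 0.31, adjusted p = 0.0105), and without ob/ob array 3 the difference was 1.17 (adjusted p = 0.0544).

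Genes of the androgen-regulated and sex-biased list held the 3 largest falls of the comparison. All animals were female, so the sexes were not compared. Of 23 tested members 4 were lower, none was higher, and the median was -0.06. Kap, the kidney androgen-regulated protein of the proximal tubule, gave 11.94, 11.59, 13.38 and 13.40 in ob/ob and 16.76, 17.31, 17.14 and 17.51 in wild type, a difference of -4.60 ± 0.88 (adjusted p = 0.00608). Slc22a19, an organic anion transporter, gave 7.03, 7.07, 7.38 and 8.19 against 10.93, 10.91, 10.09 and 11.35, a difference of -3.40 ± 0.51 (adjusted p = 0.000847). Slc7a12, an amino acid transporter, gave 8.88, 9.38, 10.71 and 11.02 against 13.17, 12.80, 12.74 and 13.71, a difference of -3.11 ± 0.69 (adjusted p = 0.0171). Slc22a7, another organic anion transporter, gave 6.18, 6.19, 6.02 and 6.27 against 7.85, 8.19, 7.24 and 8.13, a difference of -1.68 ± 0.32 (adjusted p = 0.00555). None of the 4 overlapped between genotypes, and in Kap and Slc7a12 ob/ob replicates 1 and 2 were lower than ob/ob replicates 3 and 4. Slc22a7 in ob/ob lay near the negative control median, so the size of its fall is limited by background. The call of Slc7a12 was lost without ob/ob array 1 or 2 or wild-type array 4 (adjusted p of up to 0.0751), and the other 3 were kept whichever array was left out. Kap is also the member that set the low end of the proximal tubule list, in which 13 of 23 differences were positive, Slc4a4, the bicarbonate exit transporter, rose by 0.50 ± 0.11 (adjusted p = 0.012), and the median was 0.07. The call of Slc4a4 was lost without replicate 4 of either genotype (up to 0.0559).

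Among markers of the nephron beyond the proximal tubule, calls were in 1 direction. The 4 lists for the thick ascending limb, the distal convoluted and connecting tubule, the principal cell and the intercalated cell held 56 tested genes, of which 19 fell, none rose and 37 did not pass. Among all genes 1.05% fell and 0.639% rose at the same threshold. Of the 56 differences 52 were negative, and the median was -0.82. In 41 of the 56 every ob/ob array was below every wild-type array, against 6.31% of all genes. The lists were chosen with earlier results of these data known, and markers of the same cells are not independent. The comparison is therefore a description and not a test. Leaving out single arrays moved the count of 19 to between 7 (without wild-type replicate 4) and 17 (without wild-type replicate 3). It was 8, 11 and 8 without ob/ob array 2, 3 or 4 and 10 without wild-type replicate 2, and the fit on the 8 arrays alone called 36.

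In the thick ascending limb, the segment that takes up salt with calcium and magnesium following, 9 of 14 tested genes were lower, all 14 differences were negative, and the median was -1.30. The count was 5 without wild-type replicate 4 and 6 to 8 without each of the others. Umod, its main secreted protein uromodulin, gave 18.54, 18, 18.15 and 18 in ob/ob and 19.33, 19.39, 19.55 and 19.59 in wild type, a difference of -1.29 ± 0.20 (adjusted p = 0.00137). Egf, the epidermal growth factor precursor, gave 16.02, 15.61, 15.41 and 15.52 against 17.17, 17.32, 17.59 and 17.35 (-1.72 ± 0.27, adjusted p = 0.00147). Bsnd, the chloride channel subunit barttin, gave 8.75, 8.48, 8.45 and 8.45 against 10.22, 10.67, 9.58 and 10.69 (-1.76 ± 0.33, adjusted p = 0.00512). These 3 genes showed no overlap and kept their calls whichever array was left out. Kcnj1, the potassium channel that recycles potassium for salt uptake, gave 12.20, 11.93, 11.89 and 12.37 against 13.67, 13.87, 13.32 and 13.94 (-1.6 ± 0.39, adjusted p = 0.0322), and its call was lost without any array but wild-type replicate 3 (up to 0.111). Slc12a1, the salt cotransporter blocked by loop diuretics, gave 16.72, 16.31, 15.85 and 16.25 against 17.19, 17.33, 17.77 and 17.47 and did not pass (-1.16 ± 0.34, adjusted p = 0.0894), although its arrays did not overlap. The remaining called members, Casr aside, were the tight junction gene Cldn19 (-1.51 ± 0.32), the phosphatase inhibitor gene Ppp1r1a (-1.63 ± 0.32), the kininogen gene Kng2 (-1.31 ± 0.29) and the prostaglandin receptor gene Ptger3 (-1.29 ± 0.32). Of these, the call of Ppp1r1a was kept whichever array was left out, and those of Cldn19 (without ob/ob array 3 or wild-type array 4), Kng2 (without replicate 2 or 4 of either genotype) and Ptger3 (without any array but replicate 1 of either genotype) were not.

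In the distal convoluted and connecting tubule 6 of 14 tested genes were lower, and the median was -0.80. The count was 2 without ob/ob array 2 or 4 or wild-type array 4, 3 without wild-type replicate 2 and 4 to 6 without any other array. Slc12a3, the thiazide-sensitive salt cotransporter, gave 15.47, 15.09, 15.38 and 14.87 in ob/ob and 16.88, 17.03, 16.85 and 17.05 in wild type, a difference of -1.75 ± 0.35 (adjusted p = 0.00895). Slc16a7, a monocarboxylate transporter, gave 12.09, 11.75, 11.65 and 11.55 against 12.88, 13.25, 13.37 and 13.30 (-1.44 ± 0.29, adjusted p = 0.00903). Both calls were kept whichever array was left out. Pvalb, a calcium-binding protein of this segment, gave 8.52, 7.89, 8.29 and 7.85 against 9.41, 9.93, 9.24 and 9.74 (-1.44 ± 0.31, adjusted p = 0.0134). Regulators of the cotransporter fell by less: the kinase gene Wnk1 differed by -0.75 ± 0.17 (adjusted p = 0.0191) and the ubiquitin ligase adaptor gene Klhl3 by -0.74 ± 0.19 (adjusted p = 0.0391). Pvalb lost its call without replicate 2 or 4 of either genotype, Wnk1 without ob/ob array 2 or 4 or wild-type array 4, and Klhl3 without any array but wild-type replicate 3 (adjusted p of up to 0.0594, 0.0757 and 0.137). Trpv5, the apical calcium channel, did not pass (-0.80 ± 0.47, adjusted p = 0.566).

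Most collecting duct genes had negative differences, but few passed. In principal cells 2 of 15 tested genes were lower, and 12 of the 15 differences were negative (median -0.37). Hsd11b2, the enzyme that shields the mineralocorticoid receptor from glucocorticoid, gave 12.46, 12.12, 12.38 and 11.93 in ob/ob and 13.92, 14.71, 14.61 and 14.92 in wild type, a difference of -2.32 ± 0.60 (adjusted p = 0.0473). Scnn1a, a subunit of the epithelial sodium channel, gave 11.77, 11.30, 11.23 and 11.17 against 12.64, 13.08, 12.85 and 13.36 (-1.61 ± 0.38, adjusted p = 0.0248). The water channel gene Aqp2 gave 14.72, 14.09, 14.16 and 14.65 against 14.39, 14.82, 13.89 and 14.59, and its groups overlapped (-0.02 ± 0.73, adjusted p = 0.999). Aqp3, the water channel of the opposite membrane, also overlapped (0.19 ± 0.57, adjusted p = 0.974). With standard errors of 0.73 and 0.57, a fall as wide as that of Scnn1a would not have been detectable in either water channel gene. No test compared the water channels with the sodium genes. In intercalated cells 2 of 13 were lower, and 12 of the 13 differences were negative (median -0.81). Rhcg, an ammonia transporter, gave 11.81, 11.67, 11.11 and 11.37 against 13.03, 13.25, 13.01 and 13.55 (-1.72 ± 0.40, adjusted p = 0.0248). Atp6v1b1, a subunit of the proton pump, gave 11.75, 11.36, 11.45 and 11.36 against 12.77, 12.95, 12.53 and 13.09 (-1.36 ± 0.30, adjusted p = 0.0156). Slc26a4, the exchanger pendrin, did not pass (-1.06 ± 0.36, adjusted p = 0.164). The call of Hsd11b2 was lost without any 1 of the 8 arrays (up to 0.154), those of Scnn1a and Rhcg without ob/ob array 2, 3 or 4 or wild-type array 2 or 4 (up to 0.1 and 0.0953), and that of Atp6v1b1 without ob/ob array 2 or 4 or wild-type array 4 (up to 0.0664).

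**Figure D3:**
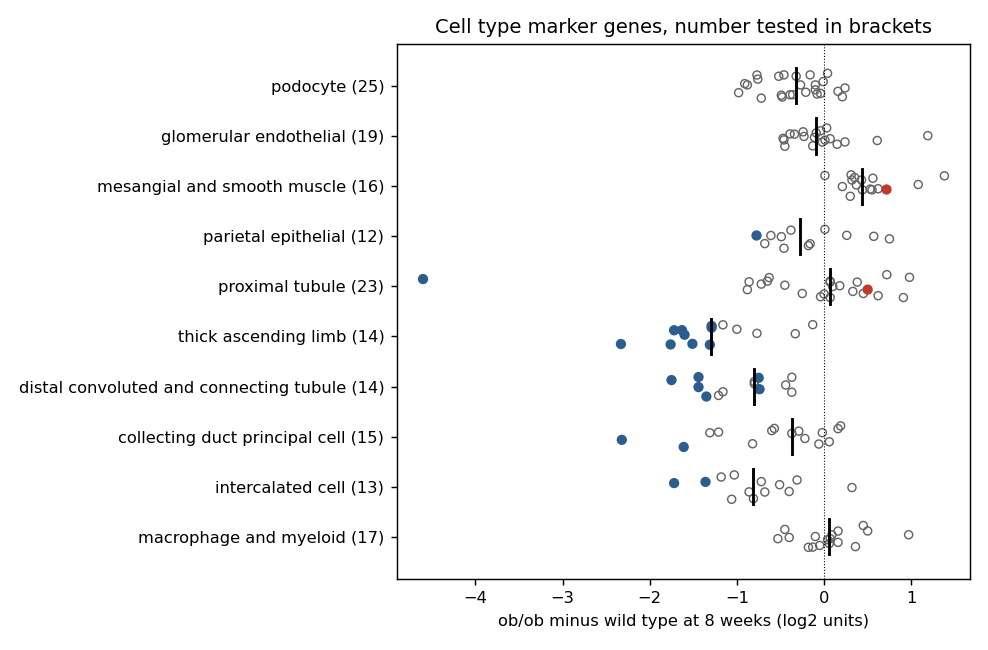
Each point is 1 marker gene, placed by its difference ob/ob minus wild type at 8 weeks in log2 units, with the cell type and the number of genes tested on the y axis; filled points pass an adjusted p of 0.05 (red higher, blue lower), and black bars are list medians. The 4 distal lists lie left of 0 (medians -1.30, -0.80, -0.37 and -0.81), the mesangial list lies right of 0 (0.43), and the far left point of the proximal tubule list is Kap (-4.60).

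None of 25 podocyte genes and none of 19 endothelial genes passed. The podocyte list had 21 negative differences and a median of -0.32, and the endothelial list had 12 and a median of -0.09. Wt1, a transcription factor of podocytes, gave 8.30, 8.83, 8.59 and 8.04 in ob/ob and 8.76, 8.85, 9.73 and 9.48 in wild type (-0.77 ± 0.45, adjusted p = 0.552). Synpo, the actin-binding protein synaptopodin, differed by -0.21 ± 0.15 (adjusted p = 0.693). The endothelial receptor gene Kdr gave 13.73, 14.34, 14.81 and 13.72 against 13.96, 13.21, 14.87 and 14.65 (-0.02 ± 0.51, adjusted p = 0.999). In Nphs1, Wt1 and Kdr the highest wild-type value was in replicate 3, and without that array the podocyte median was -0.20. With standard errors of 0.56, 0.45 and 0.51 for Nphs1, Wt1 and Kdr, differences as wide as those of many called genes would not have been detectable in them.

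All 16 tested mesangial and smooth muscle genes had positive differences, with a median of 0.43, but 1 passed. Cspg4, the proteoglycan NG2 of mesangial cells and pericytes, gave 7.75, 7.59, 7.66 and 7.98 in ob/ob and 7.06, 6.88, 7.15 and 7.06 in wild type, a difference of 0.71 ± 0.12 (adjusted p = 0.00363) that was kept whichever array was left out. Itga8, the mesangial integrin subunit, gave 13.30, 13.62, 13.87 and 13.41 against 11.68, 11.04, 13.63 and 12.32, and its groups overlapped through wild-type replicate 3 (1.38 ± 0.72, adjusted p = 0.483). Pdgfrb, the growth factor receptor of mesangial cells, differed by 0.53 ± 0.48 (adjusted p = 0.793). Leaving out wild-type replicate 2, the array with the lowest mesangial mean, brought the list median to 0.26.

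**Figure D4:**
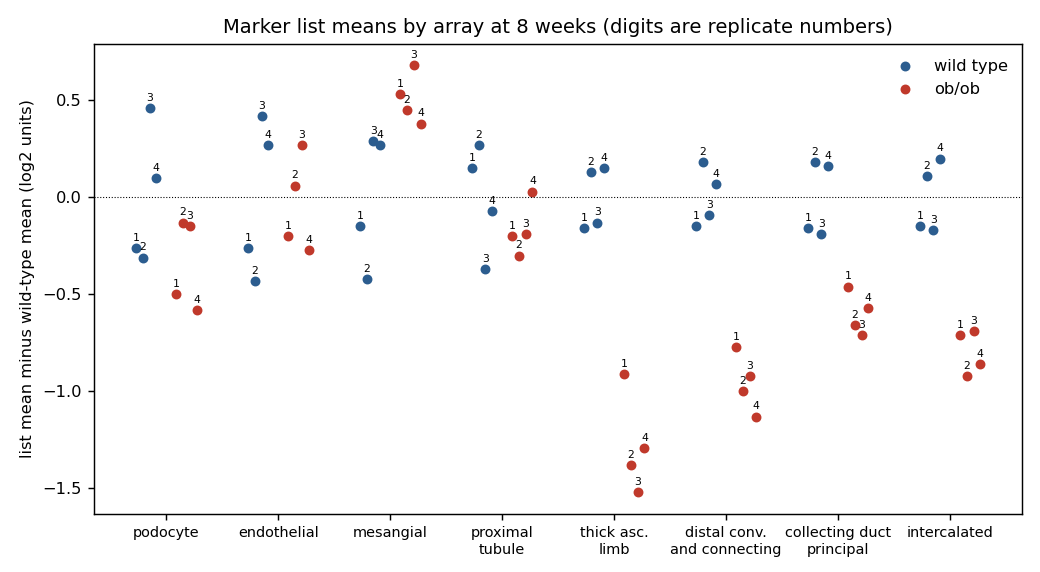
For 8 marker lists, the mean log2 signal of the tested members in each array at 8 weeks is plotted as a distance from the wild-type mean of that list, with wild type in blue, ob/ob in red and replicate numbers above the points. The thick ascending limb means of ob/ob (11.03 to 11.64) lie under those of wild type (12.39 to 12.70), the podocyte and proximal tubule means overlap, and wild-type replicate 3 is highest for podocytes and lowest for proximal tubule.

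Basement membrane genes rose in part: 3 of 20 tested were higher and none lower, with a median of 0.04. Nid1, the linker protein nidogen, gave 11.76, 11.84, 12.79 and 11.96 in ob/ob and 10.17, 9.95, 11.20 and 10.94 in wild type, a difference of 1.52 ± 0.38 (adjusted p = 0.0387). Its paralog Nid2 gave 9.55, 9.68, 9.88 and 9.93 against 9.02, 9.06, 9.13 and 9.08 (0.69 ± 0.16, adjusted p = 0.0192). Col4a2, a chain of the mesangial form of collagen IV, gave 11.19, 11.08, 11.82 and 11.38 against 9.74, 9.69, 10.54 and 10.41 (1.27 ± 0.33, adjusted p = 0.0464). Its partner chain Col4a1 gave 10.43, 10.25, 10.85 and 10.56 against 9.03, 8.98, 9.98 and 9.75 and did not pass (1.09 ± 0.33, adjusted p = 0.0959). In all 4 genes the ob/ob arrays lay above the wild-type arrays. Every one of the 3 calls was lost without ob/ob array 3 or 4 or wild-type array 1 or 4, those of Nid1 and Col4a2 also without ob/ob array 1 or 2 or wild-type array 2 (adjusted p of up to 0.146 for Nid1, 0.0826 for Nid2 and 0.152 for Col4a2). The mesangial list mean was higher in each of the ob/ob arrays too, and its part in these rises was not tested.

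Among 28 tested fibrosis and interstitial matrix genes 1 rose and 1 fell, with a median of 0.13. Mmp2, a gelatinase, gave 8.35, 8.67, 9.66 and 8.97 in ob/ob and 7.11, 7.09, 7.97 and 7.78 in wild type (1.43 ± 0.35, adjusted p = 0.0331), highest in ob/ob replicate 3. Col5a2, a fibrillar collagen chain, gave 6.50, 6.42, 6.41 and 6.31 against 7.04, 7.45, 7.41 and 7.45 (-0.93 ± 0.15, adjusted p = 0.00244). Its ob/ob values lay near the negative control median, so the size of its fall is limited by background. The call of Col5a2 was kept whichever array was left out, and that of Mmp2 was lost without ob/ob array 2, 3 or 4 or wild-type array 1, 2 or 4 (up to 0.136). Of 12 parietal epithelial markers 1 was lower, the keratin gene Krt7, at 8.53, 8.14, 8.31 and 8.41 against 8.84, 9.10, 9.08 and 9.48 (-0.78 ± 0.20, adjusted p = 0.039). Krt7 lost its call without any array but wild-type replicate 1 (up to 0.173).

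Vasoactive genes were split. Of 20 tested members of the renin-angiotensin and vasoactive list 1 rose and 2 fell, with a median of 0.02, and Ren1 was not analysed here. Agt, which encodes angiotensinogen, the substrate of renin, gave 9.49, 9.75, 9.95 and 10.29 in ob/ob and 7.79, 8.10, 7.22 and 7.80 in wild type, a difference of 2.14 ± 0.36 (adjusted p = 0.00244). Mme, the peptidase neprilysin, gave 12.26, 12.31, 11.71 and 11.95 against 13.08, 13.36, 13.39 and 13.33 (-1.23 ± 0.25, adjusted p = 0.00903). Both genes were free of overlap and kept their calls whichever array was left out. Kng1, a kininogen that yields bradykinin, gave 7.65, 7.38, 7.42 and 7.28 against 8.54, 8.62, 8.11 and 8.57 (-1.03 ± 0.23, adjusted p = 0.0166), with a call that was lost without replicate 2 or 4 of either genotype (up to 0.0641). Ace, the angiotensin-converting enzyme, gave 7.48, 7.51, 8.09 and 8.01 against 8.46, 8.69, 8.38 and 8.56 and did not pass (-0.75 ± 0.28, adjusted p = 0.225). Guca2b, the natriuretic peptide uroguanylin, was among the 30 largest rises at 12.89, 12.56, 12.12 and 13.12 against 11.44, 11.25, 9.69 and 10.23 (2.02 ± 0.42, adjusted p = 0.0102). Its call was lost without ob/ob array 4 (0.0526).

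In the heat shock list 3 of 12 tested genes fell, none rose and 9 did not pass, with 12 negative differences and a median of -0.56. Hsph1, a large cochaperone of HSP70, gave 11.23, 11.57, 10.83 and 11.84 in ob/ob and 12.82, 13.23, 14.34 and 12.60 in wild type, a difference of -1.88 ± 0.34 (adjusted p = 0.00409). Dnajb1, an HSP40 cochaperone, gave 9.17, 8.95, 8.96 and 9.17 against 9.61, 10.14, 10.71 and 9.48 (-0.92 ± 0.20, adjusted p = 0.0164). Bag3, a cochaperone of selective autophagy, gave 8.90, 8.67, 8.68 and 8.86 against 9.19, 9.73, 10.18 and 9.50 (-0.87 ± 0.23, adjusted p = 0.0458). All wild-type arrays were above all ob/ob arrays for these 3 genes, and wild-type replicate 3 was highest each time. Hspa1a, the inducible HSP70 itself, gave 6.35, 6.16, 6.45 and 6.39 in ob/ob and 7.69, 8.4, 13.98 and 7.53 in wild type, so its difference of -3.06 ± 0.95 rested largely on that 1 array and did not pass (adjusted p = 0.112). Without wild-type replicate 3 the differences were -1.54 for Hspa1a, -1.52 for Hsph1 (adjusted p = 0.0152), -0.68 for Dnajb1 (0.0598) and -0.70 for Bag3 (0.153), the list median was -0.33, and Hsph1 was the only member called. Without ob/ob replicate 2 or 3 or wild-type replicate 2 the list also held 1 call. Dnajb1 also lost its call without ob/ob array 2 or 3 or wild-type array 2 (up to 0.0598), and Bag3 without any array but wild-type replicate 1. Chordc1, an HSP90 cochaperone that was named after its values were seen, gave 10.38, 10.86, 10.34 and 10.94 against 11.87, 12.39, 12.64 and 11.74 (-1.53 ± 0.23, adjusted p = 0.000756), and -1.37 (adjusted p = 0.00361) without wild-type replicate 3.

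The promoters of Hsph1 and Chordc1 are shown because both genes fell and both windows shown hold the heat shock element, the site of the stress factor HSF1, which is set in capitals. Hsph1 has 2 windows, and the 1 shown is the first that holds the element. Windows span 250 bases before to 50 bases after the RefSeq start site in GRCm38.p6, on the minus strand for Hsph1 (chr5:149636287-149636586) and on the plus strand for Chordc1 (chr9:18292017-18292316).
Hsph1: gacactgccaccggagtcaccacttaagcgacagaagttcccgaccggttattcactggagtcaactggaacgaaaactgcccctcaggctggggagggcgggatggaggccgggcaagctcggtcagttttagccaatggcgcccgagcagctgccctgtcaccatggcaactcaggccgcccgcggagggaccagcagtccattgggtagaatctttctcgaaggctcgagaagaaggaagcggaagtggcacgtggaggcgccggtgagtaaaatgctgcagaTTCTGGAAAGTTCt
Chordc1: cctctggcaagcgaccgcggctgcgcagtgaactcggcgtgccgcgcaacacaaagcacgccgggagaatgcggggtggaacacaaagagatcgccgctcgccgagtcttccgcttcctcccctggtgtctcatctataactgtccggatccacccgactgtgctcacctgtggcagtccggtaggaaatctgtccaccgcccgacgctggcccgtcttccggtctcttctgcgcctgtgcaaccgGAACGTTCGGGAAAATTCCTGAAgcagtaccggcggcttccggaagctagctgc
The element was searched on both strands as GAA, TTC and GAA with 2 of any base between neighbours. Hsph1 holds 1 match, 37 to 49 bases after the start, and Chordc1 holds 3 overlapping matches, the first at -4 to 9 from the start. Of 32851 windows 198 hold it (0.603%), in 179 genes. Of the 12 tested heat shock genes 9 had a window and 3 held the element. Besides Hsph1 these were Hspd1 and Hspe1, whose differences were -0.02 and -0.19, so a match did not go with a fall in each gene that had one.

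Of 22 tested genes of the unfolded protein response, which raises folding capacity of the endoplasmic reticulum, 3 fell, none rose and 19 did not pass, 18 differences were negative, and the median was -0.33. The count was 1 or 2 without any array, 2 only without ob/ob array 2 or wild-type array 1. Sdf2l1, a cofactor of the chaperone BiP, gave 7.90, 8.35, 7.92 and 7.94 in ob/ob and 9.0, 9.51, 9.59 and 8.83 in wild type (-1.20 ± 0.24, adjusted p = 0.00903) and kept its call whichever array was left out. Xbp1, a transcription factor of the response, gave 10.60, 10.85, 10.69 and 10.95 against 11.50, 11.92, 11.63 and 11.59 (-0.89 ± 0.22, adjusted p = 0.0339). Pdia6, a disulfide isomerase, gave 12.49, 13.01, 12.38 and 12.68 against 13.12, 13.52, 13.68 and 13.18 (-0.74 ± 0.19, adjusted p = 0.0474). Genotypes did not overlap in the 3 genes, although the margin for Pdia6 was small. Xbp1 lost its call without any 1 of the 8 arrays and Pdia6 without any but ob/ob replicate 2 or wild-type replicate 1 (adjusted p of up to 0.105 and 0.156). Hspa5, which encodes BiP, gave 13.75, 14.17, 13.48 and 13.93 against 14.27, 14.75, 15.06 and 14.22 and did not pass (-0.74 ± 0.27, adjusted p = 0.189).

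The Pdia6 promoter is shown for the endoplasmic reticulum stress element it holds, in capitals, in a window on the plus strand (chr12:17266339-17266638, GRCm38.p6, RefSeq).
Pdia6: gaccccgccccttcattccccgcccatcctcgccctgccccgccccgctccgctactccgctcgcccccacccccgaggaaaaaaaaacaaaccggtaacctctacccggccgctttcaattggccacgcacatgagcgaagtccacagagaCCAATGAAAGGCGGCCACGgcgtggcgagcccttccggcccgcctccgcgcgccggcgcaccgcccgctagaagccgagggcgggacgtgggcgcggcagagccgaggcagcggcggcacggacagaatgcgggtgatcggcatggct
The element was searched on both strands as CCAAT and CCACG with 9 of any base between, and lies at -98 to -80 from the start. It is found in 39 of 32851 windows (0.119%) and 37 genes. Of the 22 tested genes of the response 20 had a window, and 6 held the element. Their differences were -0.47 for Calr, -0.72 for Creld2, -0.36 for Dnajc3, -0.71 for Hsp90b1, -0.74 for Hspa5 and -0.74 for Pdia6, all negative, with Pdia6 the only call.

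Insulin and leptin signalling changed in few members. Of 24 tested genes 2 fell and none rose, with a median of -0.10. Irs1, the insulin receptor substrate, gave 7.94, 7.43, 7.29 and 7.75 in ob/ob and 8.41, 8.41, 8.42 and 8.56 in wild type (-0.85 ± 0.19, adjusted p = 0.0204). Cish, a cytokine-induced inhibitor of STAT signalling, gave 6.44, 6.21, 6.65 and 6.54 against 7.16, 8.02, 6.77 and 7.72 (-0.96 ± 0.22, adjusted p = 0.0203). The ob/ob values of Cish lay near the negative control median, which limits the size of its fall. Lepr, the leptin receptor, gave 6.54, 6.41, 6.69 and 6.56 against 6.96, 7.10, 6.91 and 7.41, without overlap but also without passing (-0.54 ± 0.18, adjusted p = 0.158). Irs1 lost its call without ob/ob array 2 or 3 or wild-type array 4, and Cish without ob/ob array 1, 2 or 4 or wild-type array 2 or 4 (adjusted p of up to 0.087 and 0.0953).

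Of 14 tested injury markers 1 rose and 2 fell (median -0.04). Krt8, a keratin of stressed epithelium, gave 10.05, 9.90, 10.14 and 10.70 in ob/ob and 9.30, 9.17, 8.64 and 9.05 in wild type (1.16 ± 0.25, adjusted p = 0.0135). Havcr1, the tubule injury marker KIM-1, gave 5.85, 5.83, 5.86 and 5.81 against 6.94, 7.24, 6.78 and 8.67 (adjusted p = 0.038). All ob/ob values were under the negative control median, so no size is given for this fall, and the highest wild-type value was in replicate 4. Cd24a, a surface marker of regenerating and distal epithelium, gave 13.09, 13.06, 13.20 and 12.80 against 13.54, 14.02, 14.45 and 14.67 (-1.13 ± 0.27, adjusted p = 0.0256). Nqo1, a target of the antioxidant factor NRF2, was the only call among 23 tested redox genes, at 9.80, 9.52, 10.24 and 9.99 against 9.25, 9.46, 7.93 and 8.66 (1.06 ± 0.28, adjusted p = 0.0466). The rise of Nqo1 was lost without any ob/ob array or without wild-type replicate 3 or 4 (up to 0.169), that of Krt8 without ob/ob array 4 or wild-type array 3 (up to 0.0738). Havcr1 lost its call without any ob/ob array or wild-type replicate 2 or 4, and Cd24a without ob/ob array 1, 2 or 4 or wild-type array 3 or 4 (up to 0.195 and 0.127).

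In the clock list 2 of 18 tested genes fell, none rose, and the median was -0.34. Bhlhe40, a repressor of the clock, gave 8.21, 7.68, 7.73 and 8.03 in ob/ob and 9.58, 10.15, 8.95 and 10.08 in wild type (-1.78 ± 0.34, adjusted p = 0.00638) and kept its call whichever array was left out. Cry1, a core repressor, gave 6.75, 6.85, 6.69 and 6.83 against 8.28, 8.68, 7.06 and 8.29 (-1.30 ± 0.32, adjusted p = 0.033), with a call that was lost without any array but wild-type replicate 3 (up to 0.119). Nr1d1, which encodes REV-ERB alpha, gave 8.62, 8.04, 10.79 and 9.06 against 6.29, 6.43, 8.18 and 6.56, and Per2, named after its values were seen, gave 7.02, 7.06, 7.25 and 7.36 against 8.46, 9.42, 7.83 and 9.20. Neither passed (2.26 ± 0.79, adjusted p = 0.181; -1.55 ± 0.47, adjusted p = 0.1). Wild-type replicate 3 was the wild-type array closest to ob/ob for Cry1, Per2, Bhlhe40 and Nr1d1. The time of day of collection is not given in the sources used here, and its part in these values was not tested.

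Other genes among the 30 largest falls follow. Sfrp1, a secreted inhibitor of Wnt, was the only call among 24 tested Wnt and BMP genes, at 12.96, 12.50, 12.07 and 11.89 in ob/ob and 14.74, 14.94, 15.20 and 15.43 in wild type (-2.72 ± 0.55, adjusted p = 0.00899). Wfdc15b, a small secreted protein of the protease inhibitor type, gave 13.57, 12.99, 12.94 and 12.83 against 15.27, 15.45, 15.55 and 15.83 (-2.44 ± 0.38, adjusted p = 0.00137). Defb1, an antimicrobial defensin of the tubule, gave 13.46, 13.54, 13.44 and 12.45 against 15.01, 15.34, 15.18 and 15.17 (-1.95 ± 0.37, adjusted p = 0.00546). All 3 were separated between genotypes by over 1 log2 unit and kept their calls whichever array was left out. Egfl6, a matrix protein with growth factor-like repeats, fell by 2.53 ± 0.58 (adjusted p = 0.0232), and Dio1, the deiodinase that activates thyroid hormone, fell by 2.22 ± 0.57 (adjusted p = 0.0421). The calls of both were lost when single arrays were left out, Egfl6 without ob/ob array 2 or 3 or wild-type array 4 and Dio1 without any array but wild-type replicate 3 (up to 0.111 and 0.129).

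Metabolic enzymes among the 30 largest falls were Gpx6, a glutathione peroxidase (-2.18 ± 0.43, adjusted p = 0.00821), Akr1c19, an aldo-keto reductase (-2.09 ± 0.38, adjusted p = 0.00428), and Cyp2j11, a cytochrome P450 (-1.78 ± 0.35, adjusted p = 0.00738). All 3 kept their calls whichever array was left out. Among the rises, Clca3a1 gave 10.04, 9.16, 10.90 and 9.88 in ob/ob and 7.47, 7.79, 7.05 and 8.51 in wild type (2.29 ± 0.30, adjusted p = 0.000311). Its close paralog Clca3a2 gave 8.73, 7.93, 9.39 and 8.53 against 6.76, 6.97, 6.61 and 7.49 (1.69 ± 0.25, adjusted p = 0.000756). These chloride channel regulator genes followed the same order of arrays, and probes may not separate such similar sequences. Igf2r, the receptor that clears IGF2 and sorts lysosomal enzymes, gave 12.55, 12.46, 12.49 and 12.81 against 11.50, 11.37, 11.54 and 11.13 (1.19 ± 0.17, adjusted p = 0.000666). Tspan33, a tetraspanin, rose by 1.33 ± 0.19 (adjusted p = 0.000756) and Gna14, a G protein subunit, by 1.36 ± 0.24 (adjusted p = 0.00336). All 5 of these rises were kept whichever array was left out.

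Amino acid transport showed 2 rises besides the fall of Slc7a12 among 16 tested genes. Slc6a19, the neutral amino acid transporter of the proximal brush border, gave 14.03, 13.90, 13.99 and 14.00 in ob/ob and 12.76, 12.93, 12.19 and 12.20 in wild type (1.46 ± 0.34, adjusted p = 0.0258). Slc6a6, the taurine transporter, gave 15.49, 15.48, 15.59 and 15.45 against 14.73, 14.78, 14.41 and 14.64 (0.86 ± 0.21, adjusted p = 0.0288). The ob/ob arrays were within 0.2 log2 units of each other in both genes. The calls were lost without any ob/ob array or without wild-type replicate 3 or 4, that of Slc6a6 also without wild-type replicate 1 (up to 0.103 and 0.0836).

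Immune lists were quiet. No member passed among 17 macrophage and myeloid, 10 lymphocyte, 10 complement and 17 cytokine and adhesion genes, whose medians were 0.06, -0.06, 0.10 and 0.03. In the lymphocyte list 8 of 10 members, and in the macrophage list 8 of 17, lay under the negative control median in all 8 arrays, so depletion or entry of those cells was not measurable through them. Gbp3, an interferon-induced GTPase, was the only call among 18 interferon genes, of which 17 had negative differences. It gave 7.00, 6.95, 7.04 and 7.02 in ob/ob and 7.27, 7.53, 7.67 and 8.66 in wild type (-0.78 ± 0.20, adjusted p = 0.0448), with a call that was lost without any array but wild-type replicate 1 (up to 0.192). Esm1, a proteoglycan of activated endothelium, gave 7.58, 7.12, 7.38 and 7.01 against 8.28, 8.35, 8.34 and 8.68 (-1.14 ± 0.28, adjusted p = 0.031), lost without any array but ob/ob replicate 1 (up to 0.122). Esm1 and Egf were the 2 falls among 20 angiogenic growth factor genes (median -0.26), and Slc22a7 and Slc22a19 those among 21 organic ion and drug transporters (median -0.07). No member passed among 21 glycolysis and hypoxia, 19 oxidative phosphorylation, 22 cell cycle, 18 immediate early, 10 adipocyte and 2 erythroid genes, whose medians were 0.09, 0.09, 0.08, 0.05, -0.06 and -0.36.

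The 8 week differences were then set beside those of the other ages, which come from other animals. No gene passed the test of the difference at 8 against that at 4 weeks (smallest adjusted p = 0.897, with 754 genes at an unadjusted p under 0.05) or against that at 16 weeks (smallest adjusted p = 0.298, with 1230 genes), in limma. If no gene differed, about 1 in 20 of the 24099 genes would have an unadjusted p under 0.05. Neither count stands clearly above that share. Of the 154 genes higher at 8 weeks, 145 had a positive difference at 4 weeks, 145 at 16 weeks and 121 at 24 weeks, against 53.2%, 48.4% and 46.2% of all genes. Of the 253 lower genes 237, 239 and 230 had a negative one, against 46.8%, 51.6% and 53.8%. The median of the higher genes was 0.68 at 8 weeks and 0.24, 0.37 and 0.26 at 4, 16 and 24 weeks, and that of the lower genes was -0.82 and -0.34, -0.50 and -0.51. Because these genes were selected at 8 weeks, their differences there are larger by selection. Of the higher genes 0, 48 and 49 were themselves called in the same direction at 4, 16 and 24 weeks. Of the lower genes 0, 88 and 143 were. Among all genes 0.00415%, 2.25% and 25.9% were called at those ages, but in either direction, so these shares are not a like background. Array quality was uneven at 24 weeks. The chance that a positive control was brighter than a negative control was 0.778, 0.783 and 0.762 in ob/ob arrays 1, 2 and 4. It was 0.861 in ob/ob array 3 and 0.832 to 0.886 in wild type of that age. The part of array quality in the 24 week values was not tested.

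The differences of single genes at each age are given as description, and are plotted for 16 of them. No change between 8 weeks and 4 or 16 weeks passed adjustment, and 8 against 24 weeks was not tested. Slc22a19 was lower at each age (-2.88, -3.40, -3.54 and -3.78 at 4, 8, 16 and 24 weeks), and Agt was higher at each (1.10, 2.14, 2.76 and 2.60). Cyp24a1 differed by 0.44 at 4 weeks, 3.87 at 8, 2.21 at 16 and 3.27 at 24 weeks. Cyp27b1 differed by 2.73 at 4 weeks, which did not pass at that age, and no test compared the 2 genes. Thick ascending limb markers had a median of -0.45 at 4, -1.30 at 8, -1.15 at 16 and -1.11 at 24 weeks. The distal convoluted and connecting list was at -0.24, -0.80, -0.32 and 0.17, with Slc12a3 at -0.25, -1.75, -0.64 and 0.53. Nid1 differed by 0.20, 1.52, 1.28 and -0.66, and Cry1 by -0.01, -1.30, 0.19 and -0.29.

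Genes with the smallest unadjusted p for a difference between ages included Arhgap11a. It gave 8.26, 7.81, 8.12 and 8.33 in ob/ob and 7.19, 7.21, 7.16 and 7.38 in wild type at 8 weeks (0.89 ± 0.12, adjusted p = 0.000399), while its differences were 0.19, 0.17 and 0.20 at 4, 16 and 24 weeks. The zinc finger gene Zfp691 was lower at 8 weeks (-0.72 ± 0.17, adjusted p = 0.0288) and at 0.47 at 16 weeks, and lost its call without any array but wild-type replicate 3 (up to 0.105). Akr1c20, an aldo-keto reductase, and Cubn, the albumin receptor cubilin, showed -0.12 ± 0.25 and 0.07 ± 0.20 at 8 weeks but -1.94 and -1.08 at 16 weeks. The kallikrein gene Klk1b24 gave 8.30, 8.01, 7.62 and 7.74 in ob/ob and 8.71, 8.88, 8.55 and 9.0 in wild type (-0.87 ± 0.22, adjusted p = 0.0413), against 0.65 at 4 weeks, and lost its call without ob/ob array 2, 3 or 4 or wild-type array 1, 2 or 4 (up to 0.151). None of these changes between ages passed adjustment.

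**Figure D5:**
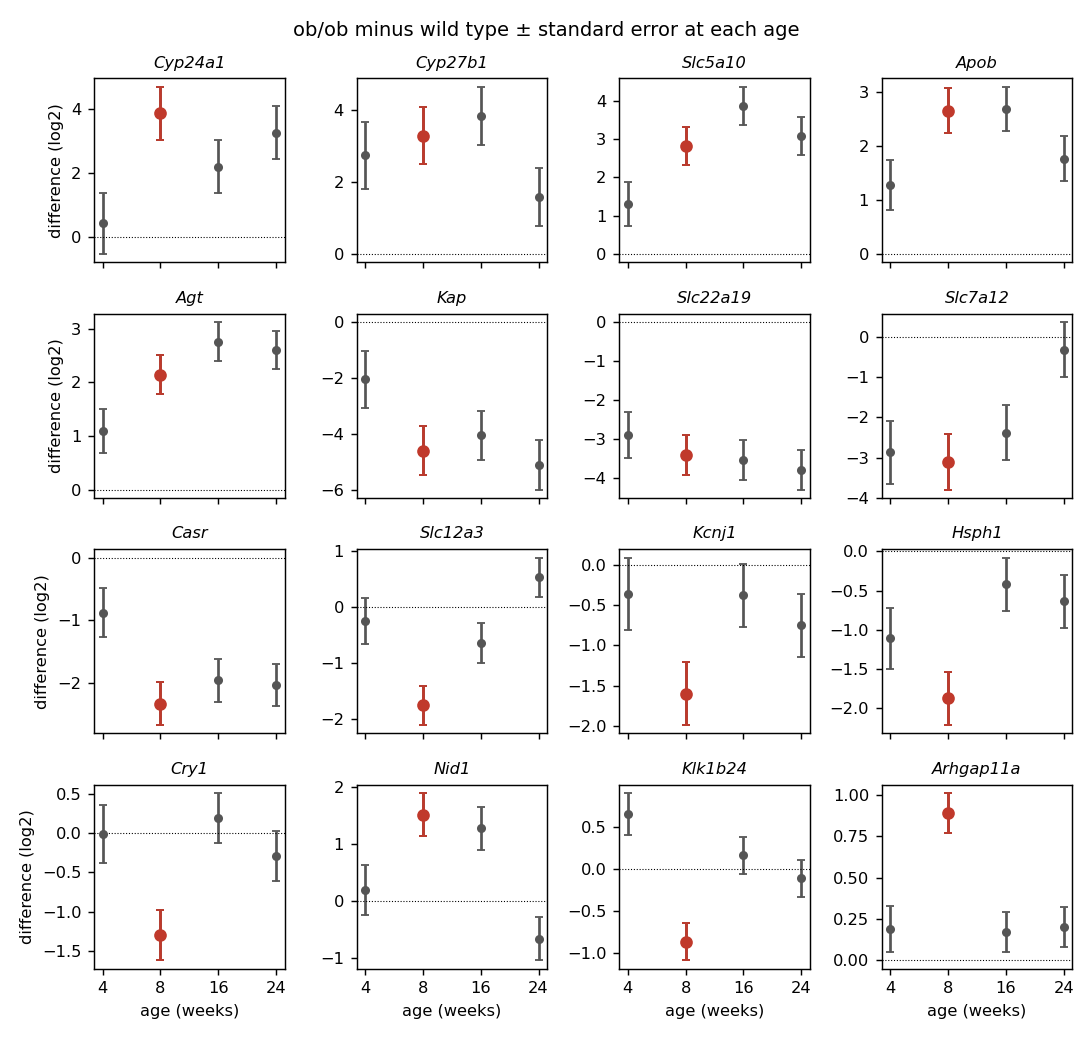
For 16 genes, points are the difference ob/ob minus wild type in log2 units at 4, 8, 16 and 24 weeks of age, bars are standard errors from the limma fit, and 8 weeks is in red; ages are spaced evenly and not to scale. Cyp24a1, Slc12a3, Cry1 and Arhgap11a lie farther from 0 at 8 weeks than at the other ages, while Slc22a19 and Agt are on the same side at each age.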

How the data were processed

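Glomerular RNA was measured on 30 arrays, 1 animal each, of which the 8 at 8 weeks of age are described. The deposited values are log2 signals that the authors made by RMA in Affymetrix Expression Console 1.4, per the submitters' processing notes, and no other setting is stated there. Some deposited log2 values exceed 16, so the scale may be stretched and no linear folds are given. Probe sets with 1 gene symbol were named from the platform annotation and updated through RefSeq, and 1 probe set was kept per gene. Genes at log2 5 or more in at least 3 arrays were kept (24099). All 30 arrays were fitted with limma 3.58.1 in R 4.3.3, with 1 mean per genotype and age and Benjamini-Hochberg adjustment at 0.05. The number of arrays limits the precision.

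Simulated data on 24099 genes were made for the 8 week comparison, with noise that had no part shared between genes. Of 50 genes at each change of 0.5, 1, 2 and 3 log2 units, 19, 45, 49 and 50 were recovered. There were 12 false calls. Content shifts that move many genes of 1 array were absent, so these rates are not estimates for the real arrays. There, leaving out 1 array at 8 weeks brought the 407 calls to between 166 and 324. Genes are named where they were among the 30 largest called rises or falls, were called members of a list or its first 4 as written, were among the 10 smallest p between ages, or were Lep or Lepr; others are said to be chosen after their values were seen. The members and the 42 gene lists were chosen with earlier results of these data known. Alternatives changed the filter, scaling, arrays fitted, weights, moderation, probe set rule, a proximal tubule covariate and a replicate block, and left out each array in turn.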

Additional observations from a re-analysis of the deposited data

Results flagged for a closer look

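In 246 groups of 4 arrays checked for named genes, and in those of the array quality measures, 15 held a highest or lowest array far from the other 3, where chance flags about 1 in 20 groups. In wild-type replicate 3 these were Hspa1a (13.98), Nr1d1 (8.18), Lep (5.75) and Kng1 (8.11). In ob/ob replicate 3 they were Kl (15.13), Pck1 (17.17) and Tspan33 (10.31). The others were Bsnd (8.75) and Cubn (15.08) in ob/ob replicate 1, Sdf2l1 (8.35) in ob/ob replicate 2, and Defb1 (12.45) and the median negative control (6.26) in ob/ob replicate 4. In wild type they were Col5a2 (7.04) in replicate 1, and Irs1 (8.56) and Esm1 (8.68) in replicate 4.

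The kallikrein genes Klk1b24, Klk1b21, Klk1b22 and Klk1b11 were lower in ob/ob at 8 weeks (-0.87, -0.86, -1.0 and -0.90) and had positive differences at 4 weeks (0.65, 0.42, 0.39 and 0.32). No gene passed adjustment in the limma test of the difference between these ages. These are near-identical paralogs whose probes may share signal, so the 4 are not independent.

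Among 24558 probe sets not used for a gene, 57 passed the adjusted p at 8 weeks (0.232%), 14 higher and 43 lower in ob/ob.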

How the results depend on the processing

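The count of 407 genes was 722 with cyclic loess, 1697 with array quality weights, 855 with the proximal tubule covariate (a mean that includes Kap and so carries part of the genotype difference) and 129 at a difference of at least 1, and 166 to 324 with 1 array left out. Replicate numbers did not pair the arrays at 8 weeks (same-number correlations of -0.35 to 0.15 at that age). With a replicate block fitted within each age the count was 266. Between 8 and 16 weeks, 0 genes became 160 with array weights, 2 with the covariate and 0 to 24 with 1 array left out (24 without wild-type replicate 2 at 16 weeks). Differences near 0 changed sign: Aqp2 with cyclic loess (0.02) and the covariate (0.21), Lep (0.05), Nphs1 (0.02) and Cubn (-0.04) with array weights, Kdr with cyclic loess (0.02) and Akr1c20 with the covariate (0.04). With 1 array left out the range was -0.20 to 0.11 for Aqp2, -0.13 to 0.15 for Lep, -0.25 to 0.21 for Nphs1, -0.34 to 0.21 for Kdr and -0.28 to 0.00 for Akr1c20. Of 94 named genes with a call, 40 kept it in all 19 settings and none reversed. The causes were not tested.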
